A study of Mus musculus with 4 samples.

Results

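Inflammatory-type fibroblasts of the mouse mammary gland were examined by single-cell RNA-sequencing in 2 WT libraries (WT1, WT2) and 2 LATS1/2 KO libraries (KO1, KO2), each from the mammary glands of 1 mouse. Of 18200 cells kept across the 4 libraries, 310 met the definition of an inflammatory-type fibroblast. A cell was counted as stromal when Col1a1, Col1a2 and Col3a1 made up at least 0.5% of its UMIs (unique molecular identifiers, each standing for 1 captured transcript), with Epcam below 10 counts per 10000 UMIs, and no UMI of Ptprc or Pecam1. A stromal cell was counted as inflammatory-type when its summed UMIs of Scara5, Clec3b, Pi16, Dpp4 and Smpd3 exceeded both the sum of Lrrc15, Fap, Adam12, Cspg4 and Col12a1, which mark myofibroblast-type cells, and the sum of Notch3, Rgs5, Higd1b, Gja4 and Kcnj8, which mark perivascular cells. These markers follow the grouping of the study into iCAF, myCAF and perivascular-like cells, and their levels are given below as a description only.

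All 4 mice carried floxed Lats1 and Lats2 alleles (Lats1f/f;Lats2f/f) and the Cre reporter R26-lsl-EYFP. WT1 and WT2 were heterozygous for the reporter and had no Cre. KO1 (reporter heterozygous) and KO2 (reporter homozygous) also carried Krt8-CreERT2, a tamoxifen-inducible Cre driven by the promoter of a luminal epithelial keratin, so that fibroblasts were not its target cells. Every mouse, WT included, received 2 mg tamoxifen in corn oil by intraperitoneal injection on 5 consecutive days, and glands were collected 7 days after the last dose from adult nulliparous mice. The glands were dissociated enzymatically and sorted for live cells only, so the number of fibroblasts in a library depends on how many were released and survived.

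Fibroblasts make the collagen and proteoglycan matrix around mammary ducts and secrete growth factors, chemokines and complement proteins. Cells positive for Dpp4 and Pi16 are known as widely distributed fibroblasts of the fascia and the outer layer of vessels, and in tumours the inflammatory type is set apart from contractile, matrix-rich myofibroblasts by its secreted immune factors. LATS1 and LATS2 are the kinases of the Hippo pathway that hold back the transcriptional activators YAP and TAZ.

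The inflammatory-type fibroblasts numbered 39 in WT1, 12 in WT2, 51 in KO1 and 208 in KO2, and their summed UMIs were 163180, 59667, 281235 and 1257331 in the same order. WT2 was therefore the thinnest point of every comparison, and most KO cells came from KO2. The median cell held 4004, 5146.5, 5420 and 5990 UMIs. Whole libraries held between 39319356 and 47321220 UMIs, and any pair of libraries shared between 4 and 17 cell barcodes. At the edge of the marker rule, 4, 0, 8 and 33 members exceeded the higher of the other sums by a single UMI, and 5, 0, 22 and 58 stromal cells had equal sums and were left out. At the edge of the collagen rule, 4, 0, 3 and 31 members lay between 0.5% and 0.6%, and 1, 2, 0 and 39 cells that met every other condition lay between 0.4% and 0.5%. The collagen rule alone left out 18, 14, 56 and 287 cells.

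The fibroblast label was checked against Pdgfra and Dcn, which lie outside the rule, and against summed markers of other cell types. Pdgfra, the receptor that marks fibroblasts in most tissues, stood at 435, 419, 508 and 413 CPM (UMIs of a gene per 1000000 UMIs summed over the members) in WT1, WT2, KO1 and KO2, against 3.75, 2.1, 4.55 and 6.42 CPM in epithelial cells of the same libraries. Dcn, the collagen-binding proteoglycan decorin, stood at 20290, 22340, 13270 and 11960 CPM against 54.4, 281, 129 and 87.2 CPM in epithelial cells. Summed endothelial markers reached at most 17.5 CPM, Schwann cell markers 18.4 CPM, immune markers 64.4 CPM, and adipocyte, mesothelial and red cell markers at most 8.75 CPM in any library. Summed epithelial markers were higher in the KO members, at 472, 251, 1117 and 990.2 CPM. The endothelial, immune and epithelial sums include Pecam1, Ptprc and Epcam, which the rule limits, so their low level was partly set by it. Estimated from 6 epithelial genes, free epithelial RNA made up 2.63%, 1.42%, 5.28% and 4.45% of member UMIs. The reporter was seen in 0, 1, 0 and 4 members and in 0.244%, 0.432%, 19.3% and 24.3% of epithelial cells. Lats1 stood at 18.4, 50.3, 21.3 and 30.2 CPM and Lats2 at 36.8, 33.5, 21.3 and 34.2 CPM in the members, from 3, 3, 6 and 38 UMIs of Lats1 and 6, 2, 6 and 43 of Lats2. Neither kinase gene could be tested at these counts, and a 3' tag outside the floxed exons does not check a deletion.

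The marker genes of the rule did not move as a block. Clec3b, the plasminogen-binding protein tetranectin, stood at 1685, 1425, 423 and 325 CPM, and Dpp4, a surface peptidase, at 36.8, 50.3, 3.56 and 10.3 CPM. Smpd3, a sphingomyelinase, followed the same order at 18.4, 83.8, 0 and 3.18 CPM. By contrast, Scara5, a ferritin scavenger receptor, stood at 184, 285, 526 and 582 CPM, and Pi16, a secreted peptidase inhibitor, at 337, 318, 299 and 286 CPM. KO members were thus chosen more through Scara5 and less through Clec3b than WT members, and no test was run on these genes.

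The first question was how large a share of the stroma these cells made up. They were 39 of 47 stromal cells in WT1 (83.0%, exact binomial 95% interval 69.2 to 92.4%), 12 of 14 in WT2 (85.7%, 57.2 to 98.2%), 51 of 258 in KO1 (19.8%, 15.1 to 25.2%) and 208 of 486 in KO2 (42.8%, 38.4 to 47.3%). These intervals cover counting error only. The mean share was 84.3 ± 1.93% in WT and 31.3 ± 16.3% in LATS1/2 KO (SD, n = 2 each), without overlap between the conditions. The 2-sided exact permutation p was 0.33, the smallest that 2 against 2 mice allow. Myofibroblast-type cells numbered 2, 2, 178 and 215 in the same libraries. Of all kept cells, the inflammatory-type fibroblasts were 0.794%, 0.341%, 1.13% and 3.95%, a mean of 0.568 ± 0.320% against 2.54 ± 1.99% (SD, n = 2 each, exact permutation p = 0.33). Their share of the stroma was lower in the KO libraries while their share of all live cells was higher. Sort and dissociation yield enter both shares and were not measured.

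**Figure D1:**
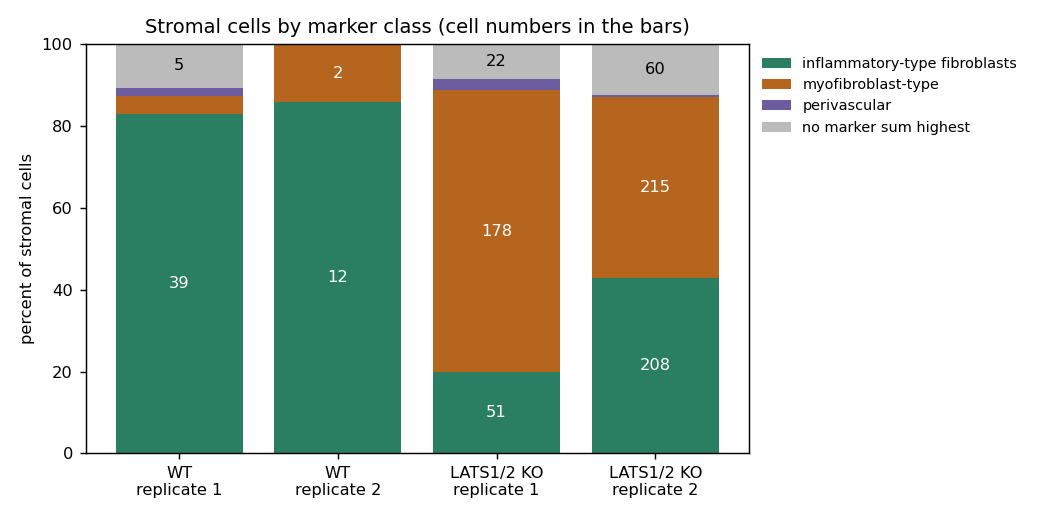
Share of stromal cells (y axis, percent) in each marker class for the 4 libraries (x axis), with cell numbers printed in the larger segments. Inflammatory-type fibroblasts fill 83.0% and 85.7% of the WT bars and 19.8% and 42.8% of the LATS1/2 KO bars, where myofibroblast-type cells number 178 and 215.

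The members of each library were then summed and compared between LATS1/2 KO and WT with edgeR's quasi-likelihood test, which asks for each gene whether the difference exceeds the spread between mice of a condition. Of 14413 genes with a UMI in the members, 3316 passed the low-count filter, and 477 of these (14.4%) passed an adjusted p of 0.05 (Benjamini-Hochberg), 235 higher in KO (7.09%) and 242 lower (7.3%). At an unadjusted p under 0.05 there were 1013 genes. The libraries of the conditions did not overlap in 476 of the 477 called genes, and in 57.5% of all genes tested. In the text below, rose and fell are used of called genes only. The median log2 fold change over all genes tested was 0.01.

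The genes with the largest fitted rise were not seen in any WT member. Saa3, an acute-phase serum amyloid A protein made by stromal and myeloid cells in inflammation, had no UMI in either WT library and stood at 1227 and 1942 CPM in KO1 and KO2. That was at least 118-fold higher than a floor of 3 UMIs over both WT libraries (edgeR adjusted p = 3.98e-05). Saa1, a related acute-phase protein, stood at 0 in WT and at 384 and 524 CPM in KO, at least 33.7-fold higher (edgeR adjusted p = 0.000118). Reg3g, an antibacterial lectin, stood at 0 in WT and at 484 and 386 CPM in KO, at least 32.3-fold higher (edgeR adjusted p = 9.16e-05). Non-overlap of the conditions was part of the rule by which these genes were named. Serum amyloid genes are close copies of each other, so reads may be split or lost between them.

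Prg4, lubricin, a lubricating glycoprotein best known from joints, was likewise unseen in WT members and stood at 868 and 1198 CPM in KO, at least 76.7-fold higher (edgeR adjusted p = 3.98e-05). Chl1, a neural cell adhesion molecule, reached 228 and 282 CPM from 0, at least 18.9-fold higher (edgeR adjusted p = 0.000273). Inhbb, the activin and inhibin beta B subunit, reached 135 and 96.2 CPM from 0, at least 8.59-fold higher (edgeR adjusted p = 0.00264). These genes were not equally absent from the other cells of the KO glands. Epithelial cells of KO1 and KO2 held 5.36 and 12.4 CPM of Saa3, 1.82 and 6.72 CPM of Prg4 and 53.1 and 60 CPM of Inhbb. Myofibroblast-type cells of the same libraries held 232 and 186 CPM of Saa3, 56.4 and 164 CPM of Prg4 and 19.1 and 7.54 CPM of Saa1, a description without a test.

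The other risers named by the same rule were lower and closer to the detection limit. Serpina3m, a serine protease inhibitor of a large gene family whose members share sequence, stood at 46.2 and 108 CPM from 0 (edgeR adjusted p = 0.0132). Enc1, an actin-binding protein, stood at 67.6 and 131 CPM (edgeR adjusted p = 0.00622), and the call was lost without KO2 (adjusted p = 0.147). Il15ra, the receptor chain that presents interleukin 15, stood at 64 and 68.4 CPM (edgeR adjusted p = 0.00522), and the call was lost without KO2 (adjusted p = 0.187). Enc1 and Il15ra were thus called only in fits that held KO2. Raph1, an actin regulator, stood at 67.6 and 54.1 CPM (edgeR adjusted p = 0.00693), and the call was lost without WT1 (adjusted p = 0.0641) and without KO2 (adjusted p = 0.147). H2-Q6, a non-classical MHC class I gene with near-identical neighbours, stood at 64 and 52.5 CPM (edgeR adjusted p = 0.00722), and the call was lost without WT1 (adjusted p = 0.0746) and without KO2 (adjusted p = 0.187). Glis3, a zinc finger transcription factor, stood at 46.2 and 53.3 CPM (edgeR adjusted p = 0.00839), and the call was lost without WT1 (adjusted p = 0.105). All 12 named risers had 0 UMIs in both WT libraries, so their rank depends on the prior count of the fit. Against the floor of 3 UMIs, Glis3 and Il15ra were at least 3.7-fold and 4.92-fold higher. Some genes with UMIs in both WT libraries rose by more than these bounds, such as Serpina3n at 104, 83.8, 2589 and 4015 CPM and Cpxm1 at 545, 519.6, 7414 and 7854 CPM, which were chosen after their values were seen.

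**Figure D2:**
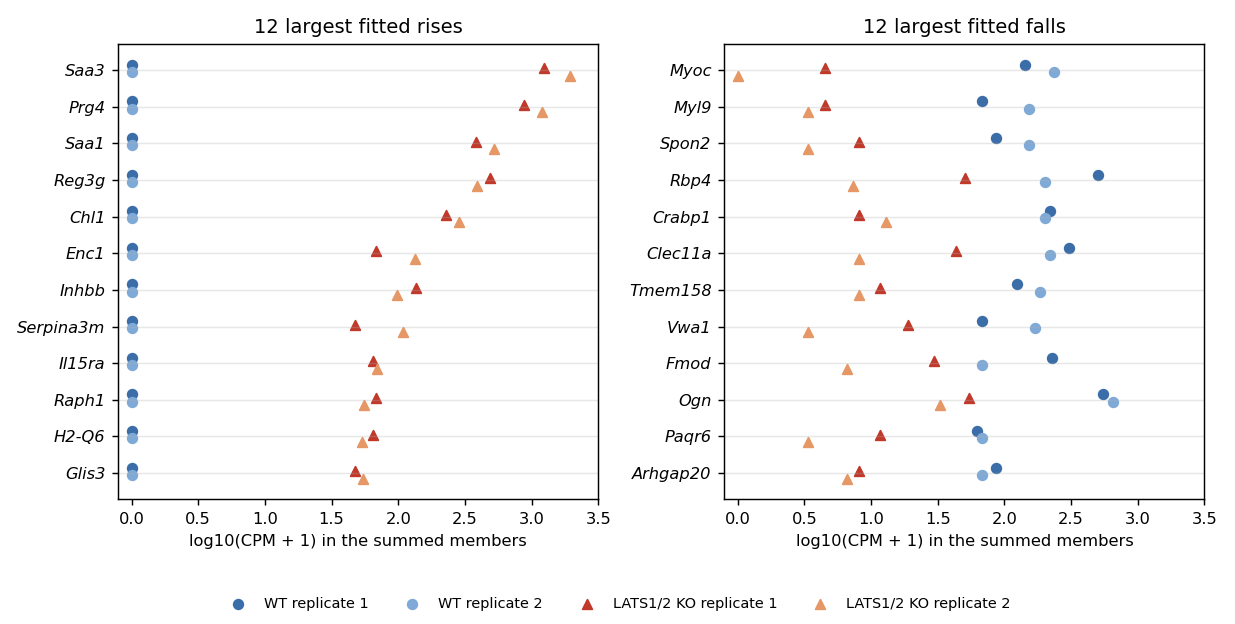
Level of the 12 largest fitted rises (left) and the 12 largest fitted falls (right) in the summed members, as log10(CPM + 1) on the x axis, with 1 point per library (circles WT, triangles LATS1/2 KO). All rises start from 0 in both WT libraries, led by Saa3 at 1227 and 1942 CPM. Genes whose conditions overlap were left out of both panels by the rule that chose them.

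Among the genes with the largest fall were matrix proteins and retinoid carriers. Ogn, osteoglycin, a small leucine-rich proteoglycan that binds collagen fibrils, stood at 545, 654, 53.3 and 31.8 CPM in WT1, WT2, KO1 and KO2, a log2 change of -3.79 ± 0.31 (SE; edgeR adjusted p = 5.88e-05). Myoc, myocilin, a secreted glycoprotein, stood at 141, 235, 3.56 and 0 CPM, from 23, 14, 1 and 0 UMIs, a log2 change of -7.36 ± 0.72 (edgeR adjusted p = 0.000132). It was carried by few WT cells, 4 of 39 and 1 of 12. Rbp4, the retinol carrier of plasma, stood at 502, 201, 49.8 and 6.36 CPM, a log2 change of -4.38 ± 0.67 (edgeR adjusted p = 0.00203). Crabp1, a cytoplasmic retinoic acid binding protein, stood at 221, 201, 7.11 and 11.9 CPM, a log2 change of -4.11 ± 0.39 (edgeR adjusted p = 0.000113). For Rbp4 and Crabp1, as for the other genes named by this rule, non-overlap of the conditions was part of the choice. Crabp1 was seen at 502 and 213 CPM in the myofibroblast-type cells of KO1 and KO2.

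Clec11a, a secreted lectin that acts on bone and blood progenitors, stood at 306, 218, 42.7 and 7.16 CPM, a log2 change of -4.01 ± 0.57 (edgeR adjusted p = 0.00129). Spon2, a secreted matrix protein, stood at 85.8, 151, 7.11 and 2.39 CPM, a log2 change of -4.73 ± 0.53 (edgeR adjusted p = 0.000282). Tmem158, a membrane protein, stood at 123, 184, 10.7 and 7.16 CPM, a log2 change of -3.97 ± 0.44 (edgeR adjusted p = 0.000275). Tmem158 also fell in endothelial cells, by a log2 change of -2.63 (edgeR adjusted p = 0.000516), so its fall was shared by another stromal cell type.

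For the remaining named fallers the call, though not the direction, was lost without 1 or more of the libraries. Myl9, a myosin light chain of contractile cells, stood at 67.4, 151, 3.56 and 2.39 CPM (log2 change -4.86 ± 0.55, edgeR adjusted p = 0.000292), and the call was lost without KO1 (adjusted p = 0.0833). Fmod, fibromodulin, a collagen-binding proteoglycan, stood at 227, 67, 28.4 and 5.57 CPM (log2 change -3.90 ± 0.65, edgeR adjusted p = 0.00308), and the call was lost without WT1 (adjusted p = 0.312). The KO sums held only 1 and 3 UMIs of Myl9 and 8 and 7 of Fmod. Vwa1, a matrix protein of basement membranes, stood at 67.4, 168, 17.8 and 2.39 CPM (edgeR adjusted p = 0.00502), and the call was lost without WT2 (adjusted p = 0.0837) and without KO2 (adjusted p = 0.0662). Paqr6, a progestin receptor family member, stood at 61.3, 67, 10.7 and 2.39 CPM (edgeR adjusted p = 0.0017), and the call was lost without WT2 (adjusted p = 0.0612), without KO1 (adjusted p = 0.43) and without KO2 (adjusted p = 0.542). Arhgap20, a GTPase-activating protein, stood at 85.8, 67, 7.11 and 5.57 CPM (edgeR adjusted p = 0.000376), and the call was lost without KO1 (adjusted p = 0.263) and without KO2 (adjusted p = 0.218). Over the fits without a library that gave a value, the log2 change lay between -4.98 and -4.37 for Myl9, -4.58 and -2.22 for Fmod, -5.07 and -2.30 for Vwa1, -4.30 and -2.34 for Paqr6, and -3.61 and -3.19 for Arhgap20.

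The largest group that moved in a single direction was the protein-folding machinery of the endoplasmic reticulum (ER), which folds and modifies secreted proteins and is raised in the unfolded protein response. All 18 listed genes were tested, and 9 fell, none rose and 9 did not pass, against 7.3% of all genes tested that fell. The median log2 change of the 18 was -1.08, beside 0.01 over all genes tested. Their summed level was 8984 CPM in WT1, 10060 in WT2, 3993 in KO1 and 3991 in KO2. Manf, a secreted neurotrophic factor released under ER stress, stood at 852, 1156, 128 and 151 CPM, a log2 change of -2.65 ± 0.26 (edgeR adjusted p = 0.000135). Sdf2l1, a partner of the main ER chaperone, stood at 123, 184, 10.7 and 16.7 CPM, a log2 change of -3.04 ± 0.42 (edgeR adjusted p = 0.00113). Pdia4, a disulfide isomerase, stood at 159, 201, 39.1 and 44.5 CPM, a log2 change of -1.85 ± 0.34 (edgeR adjusted p = 0.00534). None of these calls was lost under any alternative that gave the gene a value.

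The most abundant chaperones of the list moved by less. Hspa5, the chaperone BiP, stood at 2335, 2564, 743 and 869 CPM, a log2 change of -1.45 ± 0.20 (edgeR adjusted p = 0.0011). Hsp90b1, the chaperone GRP94, stood at 1134, 1290, 377 and 386 CPM, a log2 change of -1.51 ± 0.21 (edgeR adjusted p = 0.00125). Calr, the lectin chaperone calreticulin, stood at 1079, 1106, 380.5 and 429 CPM, a log2 change of -1.28 ± 0.22 (edgeR adjusted p = 0.00338). Herpud1 and Pdia6 fell as well, by log2 changes of -1.61 ± 0.27 and -1.44 ± 0.25. Creld2 was the weakest call, held in 6 of 12 alternatives and lost without each library in turn (adjusted p up to 0.621). The transcription factors of the response did not follow the chaperones. Xbp1, Atf4 and Ddit3 had log2 changes of -0.75 ± 0.28, 0.12 ± 0.26 and 1.29 ± 0.48, with edgeR adjusted p = 0.0902, 0.827 and 0.0958. Serpinh1, the collagen chaperone HSP47, which also resides in the ER, stood at 1483, 1810, 388 and 316 CPM, a log2 change of -2.09 ± 0.22 (edgeR adjusted p = 0.000179).

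Genes of this group are known to share a promoter motif, the ER stress element, so the 250 bases before each start site were searched in RefSeq promoters of build GRCm38.p6. The motif searched was CCAAT and CCACG with 9 bases of any kind between them, on either strand (CGTGG and ATTGG when read from the other). It occurred in 37 of the 32851 promoter windows searched (0.113%). These windows did not cover every chromosome, so the share is not genome-wide. Of 18 listed genes, 16 were in the table (Manf and Kdelr2 were not). The motif was in 5 of the 8 that fell (Hspa5, Hsp90b1, Pdia6, Calr and Creld2) and in 1 of the 8 that did not pass, Canx. These 5 promoters are shown because their genes fell together and hold the motif. They lie at chr2:34771840-34772089 on the plus strand (Hspa5), chr10:86705445-86705694 on the minus strand (Hsp90b1), chr12:17266339-17266588 on the plus strand (Pdia6), chr8:84846932-84847181 on the minus strand (Calr) and chr15:88819396-88819645 on the plus strand (Creld2). Each is written 5′ to 3′ on the strand of its gene, ending at the base before the start site, with the outer 5 bases of each motif match in capitals. A match describes the sequence and does not show that a factor was bound.
Hspa5: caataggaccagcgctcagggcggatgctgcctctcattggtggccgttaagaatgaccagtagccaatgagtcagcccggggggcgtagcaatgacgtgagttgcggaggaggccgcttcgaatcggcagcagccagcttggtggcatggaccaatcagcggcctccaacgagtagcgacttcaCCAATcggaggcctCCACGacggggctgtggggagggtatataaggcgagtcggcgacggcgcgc
Hsp90b1: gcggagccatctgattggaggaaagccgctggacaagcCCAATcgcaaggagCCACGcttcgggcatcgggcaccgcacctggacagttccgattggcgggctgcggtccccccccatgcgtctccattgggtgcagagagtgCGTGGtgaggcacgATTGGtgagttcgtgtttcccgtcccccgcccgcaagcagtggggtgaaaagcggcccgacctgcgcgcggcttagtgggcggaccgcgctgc
Pdia6: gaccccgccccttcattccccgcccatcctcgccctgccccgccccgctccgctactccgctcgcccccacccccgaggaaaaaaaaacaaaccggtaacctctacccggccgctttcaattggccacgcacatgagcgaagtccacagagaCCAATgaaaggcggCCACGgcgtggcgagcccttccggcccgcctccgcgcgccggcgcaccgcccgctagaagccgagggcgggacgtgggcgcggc
Calr: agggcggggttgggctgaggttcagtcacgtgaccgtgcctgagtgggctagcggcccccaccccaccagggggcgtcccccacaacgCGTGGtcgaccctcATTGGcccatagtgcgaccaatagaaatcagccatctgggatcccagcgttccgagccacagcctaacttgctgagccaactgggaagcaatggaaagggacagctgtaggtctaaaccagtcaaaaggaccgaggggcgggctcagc
Creld2: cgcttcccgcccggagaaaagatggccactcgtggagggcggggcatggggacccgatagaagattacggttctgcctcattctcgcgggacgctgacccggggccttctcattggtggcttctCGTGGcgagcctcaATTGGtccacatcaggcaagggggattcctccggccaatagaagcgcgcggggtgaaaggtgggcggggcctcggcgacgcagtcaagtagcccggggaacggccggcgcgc

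In the promoters above, Hsp90b1 held 2 matches, 1 on each strand, and the others 1. In Hspa5 and Pdia6 the match read on the strand of the gene, starting 65 and 98 bases before the start site. In Calr and Creld2 it read on the opposite strand, starting 162 and 126 bases before it. Pdia4, Herpud1 and Sdf2l1 fell without these letters in the window.

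**Figure D3:**
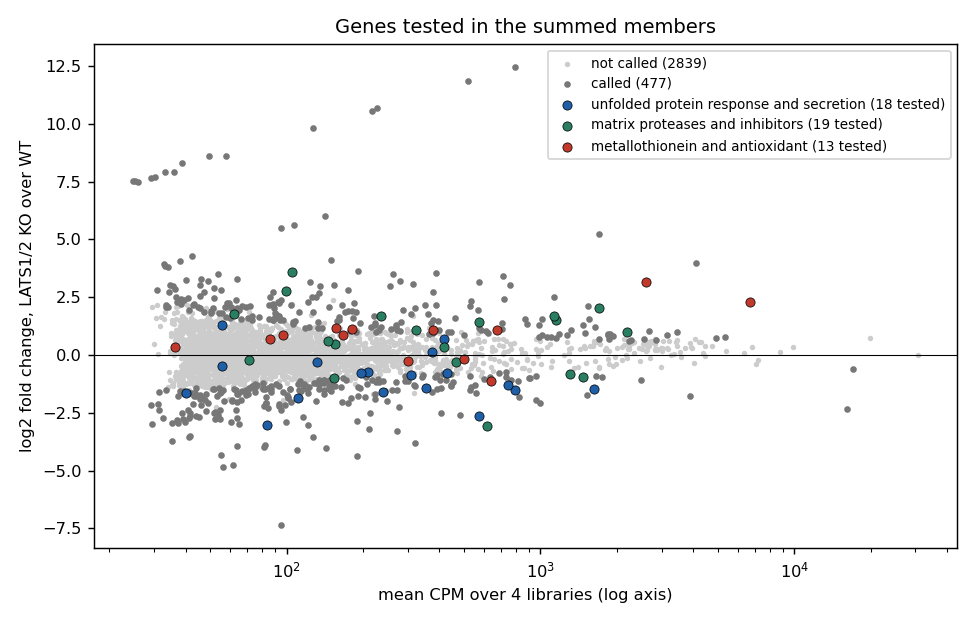
Log2 fold change of LATS1/2 KO over WT (y axis) against mean CPM of the 4 libraries (x axis, log scale) for the 3316 genes tested in the summed members, with called genes in dark grey and 3 gene lists in colour. The 18 folding genes (blue) have a median of -1.08, the 19 protease genes (green) 1.01 and the 13 metallothionein and antioxidant genes (red) 0.88.

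Matrix-degrading enzymes were mostly higher in the KO members. Of 24 listed proteases and inhibitors, 19 were tested, 9 rose, 3 fell and 7 did not pass, with a median log2 change of 1.01. Over all genes tested, 7.09% rose and 7.3% fell. Mmp3, stromelysin, which cleaves many matrix proteins, stood at 980.5, 386, 2770 and 2662 CPM, a log2 change of 2.03 ± 0.32 (edgeR adjusted p = 0.00228). Mmp11, a stromal metalloprotease known from breast tumours, stood at 24.5, 33.5, 171 and 169 CPM, a log2 change of 2.78 ± 0.44 (edgeR adjusted p = 0.00235). Adamts15, which cleaves proteoglycans, stood at 12.3, 33.5, 99.6 and 275 CPM, a log2 change of 3.61 ± 0.77 (edgeR adjusted p = 0.0115). Mmp2, Mmp14, Adamts5, Ctsk, Ctsl and Timp1 rose too, by log2 changes between 1.01 and 1.71. For Adamts5, the call was lost by DESeq2 (adjusted p = 0.0771), without WT2 (adjusted p = 0.0748), without KO2 (adjusted p = 0.227) and with the sums thinned to the smallest (adjusted p = 0.0689). Mmp14, Timp1, Ctsk and Ctsl were called higher in endothelial cells too (edgeR adjusted p = 0.000385, 0.0309, 0.0399 and 0.00559).

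The inhibitors did not move together. Timp3, the matrix-bound metalloprotease inhibitor, fell and stood at 1250, 955, 142 and 109 CPM, a log2 change of -3.05 ± 0.26 (edgeR adjusted p = 6.25e-05). Timp1, a soluble inhibitor of the same family, rose and stood at 110.3, 134, 320.0 and 376 CPM, a log2 change of 1.71 ± 0.31 (edgeR adjusted p = 0.00496). Timp2 and Serpinf1, an antiangiogenic serpin, fell by log2 changes of -0.82 ± 0.21 and -0.95 ± 0.21. For Timp2, the call was lost by DESeq2 (adjusted p = 0.161), with no low-count filter (adjusted p = 0.178), without WT1 (adjusted p = 0.258), without KO1 (adjusted p = 0.26) and without KO2 (adjusted p = 0.0662). For Serpinf1, the call was lost by DESeq2 (adjusted p = 0.0628), with no low-count filter (adjusted p = 0.0539), without WT1 (adjusted p = 0.104) and without KO2 (adjusted p = 0.132).

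Of 36 listed matrix glycoproteins and proteoglycans, 32 were tested, 4 rose, 8 fell and 20 did not pass (median log2 change -0.17). The shares over all genes tested were 7.09% that rose and 7.3% that fell. The fallers included Ogn, Fmod and Podn, a leucine-rich proteoglycan at 417, 369, 132 and 124 CPM (log2 change -1.50 ± 0.26, edgeR adjusted p = 0.00375). Thbs4, a thrombospondin of tendon and vessel wall, stood at 73.5, 83.8, 3.56 and 6.36 CPM (log2 change -3.51 ± 0.43, edgeR adjusted p = 0.000452), and the call was lost without KO1 (adjusted p = 0.312) and without KO2 (adjusted p = 0.202). Eln, the elastic fibre protein elastin, rose from 172 and 184 CPM in WT to 523 and 559 CPM in KO, a log2 change of 1.76 ± 0.27 (edgeR adjusted p = 0.00214). The proteoglycans therefore moved in both directions, since Bgn, biglycan, rose at 2323, 1374, 3726 and 3260 CPM (log2 change 1.02 ± 0.24, edgeR adjusted p = 0.017), although the call was lost without WT2 (adjusted p = 0.0766) and at a collagen limit of 0.2% (adjusted p = 0.0506). Fn1, Fbn1, Vcan and Postn were among those that did not pass.

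Of 19 listed genes that mature and crosslink collagen, 13 were tested, 3 rose, 3 fell and 7 did not pass (median log2 change 0.29). Beside these counts, 7.09% of all genes tested rose and 7.3% fell. Lox, the enzyme that crosslinks collagen and elastin, stood at 79.7, 235, 473 and 499 CPM, a log2 change of 2.02 ± 0.39 (edgeR adjusted p = 0.00683), and the call was lost with the sums thinned to the smallest (adjusted p = 0.0702). Bmp1, which trims procollagen, rose by 1.85 ± 0.40, and the call was lost without WT1 (adjusted p = 0.063) and with the sums thinned to the smallest (adjusted p = 0.0767). Serpinh1, given above, had the largest fall of this list.

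The name inflammatory-type rests on the marker genes, and the listed inflammatory factors were mixed. Of 24 listed secreted factors, 16 were tested, 3 rose, 3 fell and 10 did not pass (median log2 change -0.28). Among all genes tested, 7.09% rose and 7.3% fell. Besides Saa3, the risers were Lcn2, an iron-sequestering lipocalin, at 18.4, 67, 185 and 269.6 CPM (log2 change 2.99 ± 0.52, edgeR adjusted p = 0.00379), and Il33, an alarmin cytokine, at 49, 33.5, 160.0 and 123 CPM (log2 change 1.75 ± 0.42, edgeR adjusted p = 0.0178). Lcn2 stood at 4090 and 4247 CPM in epithelial cells of KO1 and KO2. Free epithelial RNA made up an estimated 5.28% and 4.45% of member UMIs in these libraries. That share of the epithelial level is of the same order as the members' level of Lcn2, and its part in the rise was not tested. For Il33, the call was lost by DESeq2 (adjusted p = 0.0965), without WT1 (adjusted p = 0.0595) and at a collagen limit of 0.2% (adjusted p = 0.0556). Among the fallers, Cxcl16, a membrane-bound chemokine, stood at 166, 101, 32 and 27 CPM (log2 change -2.20 ± 0.38, edgeR adjusted p = 0.00401), and the call was lost by DESeq2 (adjusted p = 0.0568) and without WT1 (adjusted p = 0.247). Il6 stood at 91.9, 67, 17.8 and 30.2 CPM and Cxcl1 at 601, 486, 263 and 297 CPM (edgeR adjusted p = 0.046 and 0.0483), and these calls held in 2 of 12 and 2 of 14 alternatives and were lost without each library in turn (adjusted p up to 0.567 and 0.376). Cxcl12, Ccl2, Ccl7, Ccl11, Csf1 and Ptgs2 did not pass.

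Complement genes moved upward or did not pass. Of 12 listed, 7 were tested, 3 rose and none fell (median log2 change 0.51), beside 7.09% of all genes tested that rose. C3, the central complement protein, stood at 735, 469, 2286 and 2660 CPM, a log2 change of 2.12 ± 0.25 (edgeR adjusted p = 0.000309). C4b stood at 386, 50.3, 804 and 1035 CPM, a log2 change of 1.95 ± 0.46 (edgeR adjusted p = 0.0168), and the call was lost by DESeq2 (adjusted p = 0.352).

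The MHC class I genes B2m, H2-K1 and H2-D1, whose products present peptides to T cells, rose, while most other tested genes of the interferon and antigen presentation list did not pass. Of 23 listed, 14 were tested, 4 rose, 1 fell and 9 did not pass (median log2 change 0.61). For comparison, 7.09% of all genes tested rose and 7.3% fell. B2m, the light chain of MHC class I, stood at 938, 754, 2233 and 2308 CPM, a log2 change of 1.54 ± 0.21 (edgeR adjusted p = 0.000901). H2-K1 stood at 588, 654, 1380 and 1344 CPM and H2-D1 at 1017, 1073, 2197 and 2256 CPM, log2 changes of 1.28 ± 0.21 and 1.23 ± 0.19. Irf7, an interferon regulatory factor, rose by 2.40 ± 0.59, and the call was lost by DESeq2 (adjusted p = 0.109), without WT1 (adjusted p = 0.125) and without KO2 (adjusted p = 0.361). Irf1, another, fell by a log2 change of -1.56 ± 0.32, and the call was lost by DESeq2 (adjusted p = 0.109), without WT1 (adjusted p = 0.199) and without KO2 (adjusted p = 0.0699). Isg15, Ifit1, Bst2, Gbp2 and Psmb8 did not pass. MHC class I genes are close copies of each other, so reads may be assigned to either.

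Few of the listed growth factor receptors and carriers were called. Of 18 listed TGF-beta pathway genes, 11 were tested, 1 rose, 1 fell and 9 did not pass (median log2 change 0.50), near the shares of all genes tested that rose (7.09%) or fell (7.3%). Tgfbr2, the ligand-binding TGF-beta receptor, stood at 184, 201, 853 and 897 CPM, a log2 change of 2.34 ± 0.25 (edgeR adjusted p = 0.000254). Tgfbi, a matrix protein named for its induction by TGF-beta, stood at 441, 553, 46.2 and 44.5 CPM, a log2 change of -3.27 ± 0.28 (edgeR adjusted p = 6.25e-05). The receptor and the induced gene thus moved in opposite directions. Among 7 listed PDGF ligands and receptors, Pdgfra, Pdgfrb and Pdgfrl were tested and did not pass, and the 4 ligands were too low to test.

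Of 9 listed IGF ligands and binding proteins, 8 were tested, 3 rose and 1 fell (median log2 change 0.40). Across all genes tested, 7.09% rose and 7.3% fell. Igfbp3, the main carrier of IGFs in plasma, stood at 98, 0, 633 and 822 CPM, a log2 change of 3.56 ± 0.50 (edgeR adjusted p = 0.00127), and the call was lost by DESeq2 (adjusted p = 0.179). Igfbp6, a carrier that prefers IGF2, stood at 2102, 2682, 885 and 441 CPM, a log2 change of -1.74 ± 0.29 (edgeR adjusted p = 0.0031). Igfbp2 stood at 30.6, 0, 128 and 75.6 CPM (log2 change 2.19 ± 0.66, edgeR adjusted p = 0.0474), against 0.264, 0.259, 1122 and 1378 CPM in epithelial cells, and the call was lost by DESeq2 (adjusted p = 0.111), without WT2 (adjusted p = 0.0913) and at a margin of at least 2 UMIs (adjusted p = 0.0503). Of 25 listed YAP/TAZ target genes, 9 were tested, Igfbp3 rose, F3 fell and 7 did not pass (median log2 change 0.19). F3, tissue factor, which starts blood clotting, stood at 827, 569.8, 114 and 115 CPM, a log2 change of -2.50 ± 0.28 (edgeR adjusted p = 0.000266). Ctgf and Cyr61, the targets most often used, had log2 changes of -0.37 ± 0.50 and 0.19 ± 0.48 (edgeR adjusted p = 0.683 and 0.847).

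Metallothioneins, which bind zinc and copper, were among the most abundant genes that rose. Of 15 listed metallothionein and antioxidant genes, 13 were tested, 6 rose, 1 fell and 6 did not pass (median log2 change 0.88). Shares over all genes tested were 7.09% that rose and 7.3% that fell. The summed level of the 15 was 6091, 6101, 19170 and 18810 CPM. Mt1 stood at 2267, 2698, 11510 and 10320 CPM and Mt2 at 441, 771, 4164 and 5032 CPM, log2 changes of 2.28 ± 0.19 and 3.14 ± 0.27 (edgeR adjusted p = 5.88e-05 and 6.25e-05). Both also rose in endothelial cells, by 2.44 and 3.63 (edgeR adjusted p = 0.00455 and 0.000102). Txn1, thioredoxin, stood at 429, 503, 800.0 and 958 CPM (log2 change 1.08 ± 0.24, edgeR adjusted p = 0.0121), and the call was lost without KO2 (adjusted p = 0.0849). Of 22 immediate early and heat shock genes, all tested, Hspa1a and Hspa1b rose by 2.43 ± 0.29 and 3.17 ± 0.39, Junb fell by a log2 change of -1.06 and 19 did not pass. As a list, these genes were thus called about as often as all genes tested (7.09% rose, 7.3% fell). For Junb, the call was lost without KO1 (adjusted p = 0.0503). Hspa1a and Hspa1b are near-identical copies, and they rose in endothelial cells as well, by 1.31 and 2.01, while Junb fell there too, by a log2 change of -0.93 (edgeR adjusted p = 0.00769, 0.000871 and 0.0412).

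Lipid-handling genes moved in both directions. Of 20 listed, 9 were tested, 3 rose and 2 fell (median log2 change -0.23). Set beside this, 7.09% of all genes tested rose and 7.3% fell. Lpl, lipoprotein lipase, stood at 257, 151, 718 and 978 CPM, a log2 change of 2.10 ± 0.31 (edgeR adjusted p = 0.00159). Lpl was called in endothelial cells too, at 5.44, 0, 60.5 and 234 CPM (edgeR adjusted p = 0.0132). Fabp4, a fatty acid carrier of fat and capillary cells, stood at 24.5, 101, 206 and 368 CPM, a log2 change of 2.80 ± 0.55 (edgeR adjusted p = 0.00738). Plin2, which coats lipid droplets, stood at 67.4, 50.3, 377 and 164 CPM, a log2 change of 2.15 ± 0.51 (edgeR adjusted p = 0.017). Epithelial cells of KO1 and KO2 held 476 and 378 CPM of Plin2 and 66.5 and 30.8 CPM of Fabp4, and the adipocyte markers Adipoq, Cidec, Plin1, Car3 and Retn summed to at most 5.57 CPM in the members. G0s2, a lipase inhibitor, fell by a log2 change of -2.39, and the call was lost by DESeq2 (adjusted p = 0.15), without WT1 (adjusted p = 0.464) and without KO2 (adjusted p = 0.115).

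The other lists held few calls, and a single call in a list of 9 to 12 tested genes, here and for the YAP/TAZ targets, is close to the 7.09% of all genes tested that rose and the 7.3% that fell. Of 12 tested contractile genes, Itga5 rose, Myl9 fell, and Acta2, which marks myofibroblasts, did not pass (log2 change 0.68 ± 0.80, edgeR adjusted p = 0.633). For Itga5, the call was lost without WT1 (adjusted p = 0.282) and without KO2 (adjusted p = 0.402). Of 11 tested hypoxia and glycolysis genes, Adm, the vasodilator adrenomedullin, fell from 423 and 536 CPM in WT to 24.9 and 122 CPM in KO, and the other 10 did not pass. Among 11 tested growth factors for epithelium and vessels, Dkk3 rose and Wnt5a, a non-canonical Wnt ligand, fell, at 67.4, 117, 14.2 and 9.54 CPM. For Wnt5a, the call was lost without WT2 (adjusted p = 0.0796), without KO1 (adjusted p = 0.25) and without KO2 (adjusted p = 0.234). For Dkk3 (log2 change 1.17), the call was lost by DESeq2 (adjusted p = 0.217), without WT1 (adjusted p = 0.206), without WT2 (adjusted p = 0.0682), without KO2 (adjusted p = 0.175) and at a collagen limit of 0.2% (adjusted p = 0.0522). Of 8 translation genes, Rplp2, Eef2 and Rpl3 rose by log2 changes of at most 0.88, each of them lost without WT2 and without KO2 (adjusted p between 0.0515 and 0.221). Cdkn1a was the only one of 21 cell cycle genes that could be tested, and it did not pass. Of 9 epithelial markers, 7 were tested and 5 rose, beside the higher free epithelial RNA of the KO members given above. Over all lists, 94 genes were called, 44 of them under every alternative that gave an adjusted p, and none changed direction.

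To see which changes went beyond those of another stromal cell type of the same glands, the KO effect in the fibroblasts was set against that in endothelial cells (31, 32, 196 and 192 cells), in a single fit with mouse as a block. Of 4777 genes tested, 80 (1.67%) differed in their KO effect, 50 more positive in the fibroblasts (1.05%) and 30 more negative (0.628%). Manf fell in the fibroblasts and stood at 158, 84.2, 188 and 145 CPM in endothelial cells, a difference in log2 effect of -3.06 ± 0.41 (edgeR adjusted p = 0.00278). Timp3 differed by -2.72 ± 0.42 (edgeR adjusted p = 0.00472), with 1082, 2063, 1067 and 1265 CPM in endothelial cells. Tgfbi differed by -4.37 ± 0.52 and Tgfbr2 by 2.00 ± 0.40 (edgeR adjusted p = 0.000828 and 0.0224). The MHC class I genes differed as a set of 3: B2m by 1.79 ± 0.28, H2-K1 by 1.55 ± 0.28 and H2-D1 by 1.40 ± 0.26 (edgeR adjusted p = 0.00511, 0.0134 and 0.0166). In endothelial cells B2m stood at 2006, 2063, 1679 and 1772 CPM. Serpinh1 and Igfbp3 differed as well, by -2.06 ± 0.31 and 4.10 ± 0.62.

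For the folding genes other than Manf the difference from endothelial cells did not pass. Hspa5 differed by -1.09 ± 0.27, Hsp90b1 by -0.69 ± 0.30 and Calr by -0.84 ± 0.30 (edgeR adjusted p = 0.0645, 0.356 and 0.245). Their own endothelial log2 changes were -0.32, -0.79 and -0.40, all downward and none called. In endothelial cells 462 of 6972 genes tested (6.63%) were called, 213 higher (3.06%) and 249 lower (3.57%).

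**Figure D4:**
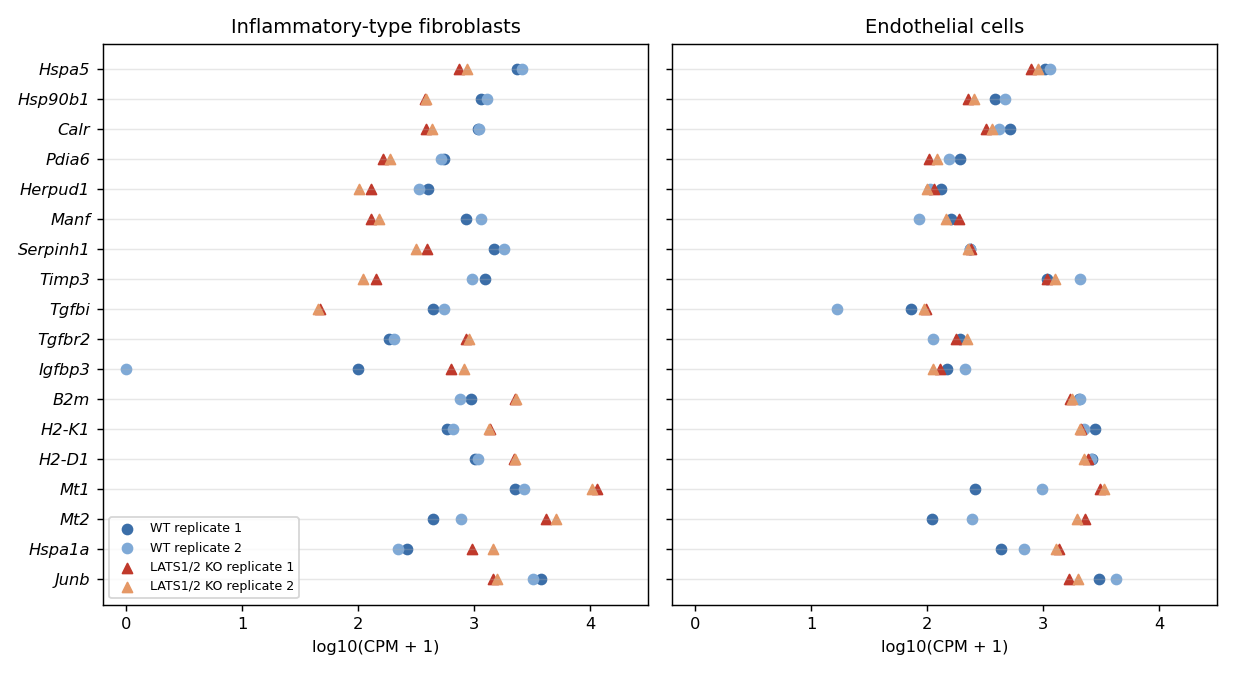
Level of 18 genes in inflammatory-type fibroblasts (left) and endothelial cells (right), as log10(CPM + 1) on the x axis, 1 point per library. Manf, Timp3 and Serpinh1 separate by condition in the fibroblasts and overlap in endothelial cells, whereas Mt1, Mt2, Hspa1a and Junb separate in the same direction in both.

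Against epithelial cells, which are the target of the Cre, the KO effect differed in 1055 of 13987 genes (7.54%), 588 more positive in the fibroblasts (4.2%) and 467 more negative (3.34%). Epithelial cells themselves changed in 8483 of 14430 genes (58.8%), 4408 higher (30.5%) and 4075 lower (28.2%). Timp3 was an example of opposite movement, at 28.5, 26.8, 483 and 678 CPM in epithelial cells while it fell in the fibroblasts.

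States within the fibroblasts were sought first with lists of adventitial and parenchymal fibroblast genes. This split carried little information, since Apod alone gave 64.0% to 84.6% of the UMIs of the parenchymal list, and 34, 10, 51 and 206 members fell on the parenchymal side. The adventitial side held 4, 2, 0 and 2 cells, 13.5 ± 4.53% of members in WT and 0.481 ± 0.680% in KO (SD, n = 2 each, exact permutation p = 0.33). A count of 0 of 51 in KO1 has an exact binomial upper limit of 6.98%. Within the parenchymal side, 462 of 3076 genes (15%) were called between KO and WT, 234 higher (7.61%) and 228 lower (7.41%). Of the listed adventitial genes, Pcolce2, which helps to process procollagen, fell at 588, 569.8, 149 and 192 CPM (log2 change -1.59 ± 0.26, edgeR adjusted p = 0.00303), while Ly6c1 rose at 269.6, 117, 476 and 640.2 CPM (log2 change 1.53 ± 0.34, edgeR adjusted p = 0.0137). Cd248 fell by a log2 change of -1.88, and the call was lost by DESeq2 (adjusted p = 0.0916), without WT1 (adjusted p = 0.099) and without KO2 (adjusted p = 0.065). Of the parenchymal list, Hsd11b1, which activates glucocorticoids, rose at 686, 369, 1365 and 1620 CPM (log2 change 1.56 ± 0.28, edgeR adjusted p = 0.00411), and Fmo2 fell at 1428, 1156, 466 and 232 CPM (log2 change -1.82 ± 0.30, edgeR adjusted p = 0.00306).

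The 259 members of the KO libraries were therefore clustered on their own, which gave 4 clusters. The genes below are those that clustering used, so they describe the clusters and no test was run. In cluster 4 (9 cells of KO1, 47 of KO2), Ltbp4, a TGF-beta binding matrix protein, stood at 555 CPM inside and 4.30 CPM outside it in KO1. In KO2, Ltbp4 stood at 335 and 16.4 CPM. Gas6, a ligand of the AXL receptors, stood at 2324 CPM inside and 322 outside in KO1, and at 2641 and 491 in KO2. Chrdl1, Cd200, C7, Inmt, Vit and Smoc2 led the same cluster. Several of these were also abundant in the WT members, where Ltbp4 stood at 454 and 251 CPM and Inmt at 913 and 771 CPM.

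Cluster 2 (9 cells of KO1, 15 of KO2) was led by matrix genes. Postn, periostin, stood at 3033 CPM inside and 264 outside in KO1, and at 5617 and 398 in KO2. F5, coagulation factor V, stood at 298 CPM inside and 22.0 outside in KO1 and at 315 and 20.6 in KO2, and had no UMI in either WT library. Col5a3, Col15a1, Col6a3, Loxl2 and Fn1 followed. The members of this cluster met the inflammatory-type rule although their leading genes are also those of matrix-rich fibroblasts.

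Cluster 1 (14 cells of KO1, 74 of KO2) was led by Cxcl13, a B cell chemokine, at 209.6 CPM inside and 14.0 outside in KO1 and at 1177 and 174 in KO2. Saa1 was also unevenly spread, at 1288 CPM inside and 103 outside in KO1 and at 765 and 406 in KO2. This cluster held the most epithelial marker UMIs, 1288 CPM in KO1 and 1833 in KO2, and their part in it was not tested. Cluster 3 (19 cells of KO1, 72 of KO2) was led by Sema3a, Ctla2a, Efemp1, Wnt4 and Hgf. The smaller of the KO1 and KO2 folds, taken after adding 20 CPM to both levels, was at most 2.25. Cluster 1 made up 27.5% (exact binomial 95% interval 15.9 to 41.7%) of KO1 and 35.6% (29.1 to 42.5%) of KO2 members, cluster 2 17.65% (8.40 to 30.9%) and 7.21% (4.09 to 11.6%), cluster 3 37.3% (24.1 to 51.9%) and 34.6% (28.2 to 41.5%), and cluster 4 17.65% (8.40 to 30.9%) and 22.6% (17.1 to 28.9%). All 4 intervals overlap between the KO mice, but they cover counting error over cells only and do not show that the mice agree.

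Finally, each cell was thinned to 2000 UMIs to ask in how many cells a gene was seen at equal depth, which kept 35, 9, 48 and 192 members and left out 4, 3, 3 and 16 shallower ones. Prg4 was seen in none of the WT cells, in 56.3% of KO1 cells and in 71.4% of KO2 cells. Saa3 was seen in none of the WT cells and in 27.1% and 33.9% of KO cells, and Saa1 in 20.8% and 25.5%. A share of 0 allows up to 8.57% in WT1 and 33.3% in WT2. In epithelial cells thinned alike (500 per library, median depths of whole cells 8004 to 11040 UMIs), Saa3, Prg4 and Saa1 were seen in at most 1.80% of cells. Without thinning, the members' shares were 35.3% and 39.4% for Saa3, 68.6% and 79.8% for Prg4 and 27.5% and 33.2% for Saa1 in KO1 and KO2. Prg4 was thus found in most KO members and the serum amyloid genes in a minority.

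Among the genes that fell, Ogn, Timp3 and Manf were seen in a smaller share of KO than of WT members. Ogn was seen in 54.3% and 77.8% of WT cells and in 10.4% and 5.73% of KO cells after thinning, and Timp3 in 65.7% and 66.7% against 12.5% and 15.6%. Timp3 was seen in 32.4% and 35.2% of KO epithelial cells, so its share in the KO members lay below that of the epithelium. Manf was seen in 62.9% and 77.8% of WT and in 18.8% and 19.8% of KO cells. Without thinning the shares in WT1, WT2, KO1 and KO2 were 64.1%, 66.7%, 19.6% and 16.4% for Ogn, 71.8%, 66.7%, 31.4% and 28.4% for Timp3, and 74.4%, 91.7%, 35.3% and 56.7% for Manf. Hspa5 fell in level but was still seen in most KO members, at 94.3%, 100%, 66.7% and 82.8% after thinning and at 92.3%, 91.7%, 92.2% and 93.3% without it. Inhbb was seen in 27.1% and 15.6% of KO members and in 11.2% to 16.6% of epithelial cells of any library, which held 53.1 to 84.1 CPM of it. Epithelial cells express Inhbb themselves and give no background level for it. Its rise was called with free epithelial RNA subtracted (edgeR adjusted p = 0.00278). WT members held no UMI of Inhbb, so that fit could hardly lose the call, and the part of epithelial RNA was not tested.

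**Figure D5:**
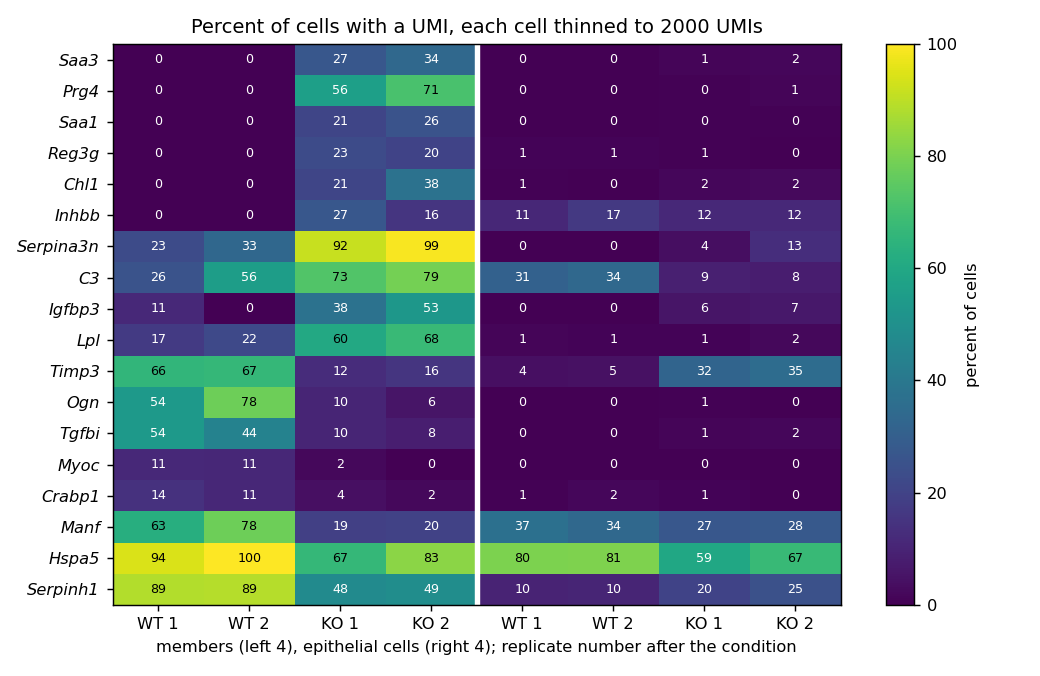
Percent of cells with a UMI of each gene after thinning every cell to 2000 UMIs (colour and printed number), for the members (left 4 columns) and epithelial cells (right 4 columns) of each library. Prg4 is seen in 56.3% and 71.4% of KO members and in no WT member, while Ogn and Timp3 are seen in most WT members and in at most 15.6% of KO members.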

How the data were processed

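Single-cell RNA-sequencing libraries (10x Genomics, 3' counting with UMIs) were made from live-sorted mammary cells of 2 WT and 2 LATS1/2 KO mice. The deposited values are raw UMI counts per gene and cell barcode, which the authors made with Cell Ranger against mm10 without normalization. The submitters' processing notes give Cell Ranger 3.1.0 and the matrix headers 6.1.2. Total UMIs per library were between 39319356 and 47321220.

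A barcode was kept as a cell if over 500 genes were detected and less than 20% of UMIs were mitochondrial, and members were found by the marker rule in the text. Doublets were not removed. As an alternative, the 5% of each library with the highest Scrublet scores (scanpy 1.11.5) were left out, which removed 2, 0, 1 and 5 members. UMIs were summed per library and tested with edgeR 4.0.16 (quasi-likelihood, TMM, filterByExpr, R 4.3.3) at a Benjamini-Hochberg adjusted p of 0.05, with n = 2 mice per condition. Levels are CPM of the sums. Log2 fold changes are from the fit and the SE is derived from its F statistic. Genes without a UMI in WT were set against a floor of 3 UMIs over both WT libraries. The KO effect was compared with endothelial and epithelial cells by an interaction term with mouse as a block. KO members were clustered on 1500 variable genes and 20 principal components, with 15 neighbours and a resolution of 0.5. The edgeR fit of condition and the interaction fit with endothelial cells were checked on simulated counts, and the other tests were not.

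Named genes were those called, without overlap between conditions, outside the marker rule, at 20 CPM or more in the higher condition and above the epithelial level of the same library there: the 12 largest changes each way (of 397 such genes), with 2 to 4 examples per gene list. Where a list is given by counts, further members are named without that rule. The members and lists were chosen with earlier results of these data known. The values of 1 called gene are not reported here. Promoter sequences are from RefSeq (GRCm38.p6).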

Additional observations from a re-analysis of the deposited data

Results flagged for a closer look

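The KO effect differed between the fibroblasts and endothelial cells in 80 genes, and between the fibroblasts and epithelial cells in 1055 genes, each by the interaction term of the edgeR fit at an adjusted p of 0.05. The values below are the log2 KO effect in the fibroblasts minus that in the other cell type, for the genes named in the text.

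Against endothelial cells, the more positive effects in the fibroblasts were Tgfbr2 2.00, Igfbp3 4.10, Bgn 1.96, B2m 1.79, H2-K1 1.55, H2-D1 1.40, Sod3 3.01, an extracellular superoxide dismutase, and Gpx1 1.43, a glutathione peroxidase. The more negative effects were Manf -3.06, Timp3 -2.72, Tgfbi -4.37, F3 -4.54, Serpinh1 -2.06, Ecm1 -2.36, Fmo2 -1.91 and Lum -6.99. Lumican (Lum) stood at 0, 0, 16.1 and 18 CPM in endothelial cells, so its value rests on very few endothelial UMIs in WT. Prg4 (10.80) and H2-Q6 (8.45) had no UMI in the WT fibroblasts, and their fitted values depend on the prior count and are no bound.

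Against epithelial cells, the effect was more negative in the fibroblasts for Myl9 (-6.78), Spon2 (-6.25), Ogn (-6.37), Vwa1 (-5.54), Arhgap20 (-5.20), Clec11a (-3.88), Fmod (-3.05), Rbp4 (-2.34) and Crabp1 (-2.20). Spon2, Ogn, Arhgap20 and Fmod stood at 4.85 CPM or less in epithelial cells of every library. It was more positive for Reg3g (18.24), Il15ra (15.21), H2-Q6 (14.75), Inhbb (14.52), Saa1 (13.75), Chl1 (13.61) and Raph1 (13.36). All of these had no UMI in the WT fibroblasts, so the fitted values depend on the prior count and are no bound.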

How the results depend on the processing

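The count of 477 called genes (49.3% higher in KO) was 484 with RLE size factors, of which 475 were shared, and lay between 427 and 506 at a log2 change of at least 1, a mitochondrial limit of 10%, a marker margin of at least 2 UMIs, without the highest Scrublet scores, with free epithelial RNA subtracted and at a collagen limit of 0.2%, an alternative chosen after seeing the data. It was 183 by DESeq2 (117 higher, 66 lower), 224 with the replicate block, 181 of 972 genes tested with the sums thinned to 59667 UMIs, and 584 with no low-count filter (409 higher, 175 lower, 368 shared). Without each library in turn it was 243 to 440, lowest without KO2, with 56.7% to 69.55% higher. In the parenchymal-type cells, 462 calls became 474 with RLE, 382 with the replicate block and 242 to 350 without each library, lowest without KO2. The latter were 250 higher and 85 lower without WT1, 175 and 128 without WT2, 232 and 118 without KO1, and 156 and 86 without KO2. The 80 differences from endothelial cells became 116 with RLE, 60 with no mouse block and 72 to 151 without each library, with 151 without WT1 and 141 without WT2. The 1055 differences from epithelial cells became 1023, 944 and 483 to 951, lowest without KO2 and 585 without WT1, where 29 of the 1055 took the other sign. In fits without a library, the condition left with 1 sample was assumed to vary like the other.

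The labels number the mice and do not say whether same-numbered mice were handled together. The correlation of same-numbered deviations was 0.00643 over 3316 genes. Counts in WT2 were low, so this value cannot settle that question. With the replicate block the edgeR adjusted p was 0.0564 for Vwa1 and 0.0537 for Glis3, and the others of the 24 named genes were still called. Calls of further genes in the text were lost with it. Among them were Ly6c1 (edgeR adjusted p = 0.0730), C4b (0.0847), Adamts5 (0.0859), Timp2 (0.0859), Itga5 (0.0675) and Dkk3 (0.0850). Irf7, Igfbp2, G0s2, Sod3 and Gpx1 were lost as well. The losses given gene by gene above leave out this setting. Over the 24 named genes and 303 alternative values, 285 kept their side of the threshold, 18 did not and none reversed. In each direction 7 of 12 were called under every alternative that gave them a value, which was 11 of 14 for Serpina3m (none without KO2), 12 for Spon2 (none without WT1), 13 for Inhbb and Tmem158 and 14 for the others. The KO minus WT difference in the share of stromal cells was -64.58 to -41.55 points without each library, that in all kept cells 0.566 to 3.38 points, lowest without KO2, and that in the adventitial side -16.19 to -9.78 points. The adventitial side was not tested by gene, since no library held 10 such cells, and its alternatives were not run. The 12 cells of WT2 limit all results, as a gene at 0 there can still be expressed.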

Other observations

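The genes of this paragraph were chosen after their values were seen. Serpina3n, an acute-phase protease inhibitor, stood at 104, 83.8, 2589 and 4015 CPM in WT1, WT2, KO1 and KO2, a log2 change of 5.22 ± 0.34 (SE; edgeR adjusted p = 1.47e-05), and was called under all 14 alternatives. After thinning to 2000 UMIs it was seen in 22.9% and 33.3% of WT members and in 91.7% and 99.0% of KO members, against 3.60% and 13.2% of KO epithelial cells. Cpxm1, a secreted carboxypeptidase-like protein, stood at 545, 519.6, 7414 and 7854 CPM, a log2 change of 3.97 ± 0.21 (edgeR adjusted p = 3.68e-06). Cpxm1 was also abundant in the myofibroblast-type cells of KO1 and KO2, at 3325 and 2994 CPM. Lbp, which binds bacterial lipopolysaccharide, stood at 166, 67, 1230 and 1374 CPM (log2 change 3.43 ± 0.32, edgeR adjusted p = 0.000101) and rose in endothelial cells as well, by 1.30 (edgeR adjusted p = 0.00592). Lrg1, an acute-phase glycoprotein, stood at 6.13, 0, 185 and 236 CPM in the members (log2 change 5.63 ± 0.67, edgeR adjusted p = 0.000369) and at 1636, 784, 2813 and 2372 CPM in endothelial cells.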
